A study of Homo sapiens with 8 samples.

Results

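Basement membrane components were represented by 32 listed genes, which encode type IV collagens, laminin chains, nidogens, heparan sulfate proteoglycans and multiplexins, the SPARC family, fibulins and a few further proteins of this matrix. A gene was followed through probe sets annotated to that symbol alone, and where a gene had several, the one with the highest mean level over all arrays was taken, with cross-hybridising (_x_at) probe sets used only where no other existed. Such a probe set was found for 31 of the 32 genes, out of 19775 genes in all, and LAMA3, a laminin alpha chain, is not analysed here. The genes came from 8 Affymetrix expression arrays of H9, an established human embryonic stem cell line, with 2 biological replicates in each of 4 groups. The groups were undifferentiated cells at day 0, taken without sorting, and cells positive for both KDR and CD31, collected by flow sorting after 4, 6 and 8 days of haematopoietic differentiation. All groups came from lines kept on inactivated mouse embryonic fibroblast feeders, and the sorted groups had in addition been differentiated in serum-free StemPro34 medium with BMP-4. The labels do not say whether feeder cells were removed before the day 0 RNA was taken, or whether replicates came from separate cultures, so p-values measure only the spread between these arrays. For 3 arrays, day 6 replicate 2 and both of day 8, 1 label gives day 4 while all others give the later day, which was used.

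A basement membrane is a thin sheet of matrix under epithelium and endothelium and around muscle cells. Laminin trimers of an alpha, a beta and a gamma chain polymerise at the cell surface, type IV collagen trimers form a second network that is crosslinked covalently, and nidogens and perlecan link the networks. Endothelial cells make such a sheet around vessels, in which the laminin alpha 4 and alpha 5 chains are the main alpha chains, while the alpha 1 chain belongs to the early embryo and to some epithelia.

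The values below are the deposited intensities, in arbitrary units, and changes are differences of mean log2(intensity + 32) with the standard error (SE) of the fit, whose spread is shared by all 4 groups. Folds are on that same scale, so the change of a dim gene is larger than its fold. A gene was said to have risen or fallen where limma gave a Benjamini-Hochberg adjusted p under 0.05 over the 13647 genes tested, those above the median of the array on at least 2 of 8 arrays. The median intensity of an array lay between 88.7 and 93.2, and the number of arrays limits the precision of every value.

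Markers of endothelium and of pluripotent cells followed the labels. The summed intensity of 5 endothelial markers was between 34460 and 47500 on the 6 sorted arrays, against 1137 and 1150 at day 0. That of 5 pluripotency markers was between 3607 and 7103 on the sorted arrays, against 40380 and 39170 at day 0. KDR and PECAM1 are the gate genes, so their rises of 24.0-fold and 85.6-fold at day 4 are set by the sort. Both are among the 5 endothelial markers summed, so the rise of that sum is set in part by the sort. CDH5, the cadherin of endothelial junctions, rose 127-fold, while the pluripotency factors NANOG and SOX2 fell 44.6-fold and 93.0-fold. Day and sorting changed together between day 0 and every later group and cannot be told apart, and a shift in which cells were present cannot be told apart from a shift in RNA per cell. On the second principal component, which held 16.65% of the variance, 2 sorted arrays lay far from the rest (7.95 to 22.9), namely the first replicates of day 4 (-37.77) and of day 6 (-40.45). The results that rest on them are given with and without them.

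Of the 26 basement membrane genes tested, 5 rose and 2 fell at day 4 relative to day 0, 5 rose and 3 fell at day 6, and 5 rose and 3 fell at day 8. COL15A1, NID1 and NID2 rose at all 3 days, and EFEMP1 and LAMA2 fell at all 3. The background was 8.52% of all genes tested rising and 9.91% falling at day 4, 9.73% rising and 13.6% falling at day 6, and 10.4% rising and 14.1% falling at day 8. In either direction 26.9% of the members passed at day 4, 30.8% at day 6 and 30.8% at day 8, against 18.4%, 23.4% and 24.5% of all genes tested. The median change of the 26 members was 0.17 at day 4, 0.26 at day 6 and 0.64 at day 8 on the log2 scale, and that of all genes tested was 0.02, -0.03 and -0.03. The 3 comparisons share the same 2 day 0 arrays. The counts depended on single arrays, and so did those over all 13647 genes. Without day 0 replicate 1 or without day 0 replicate 2 the members called were 4 and 4 for day 4, 3 and 4 for day 6, and 5 and 5 for day 8, while the genes called overall were 991 and 996, 1205 and 1212, and 1217 and 1265, against 2516, 3187 and 3345 with all arrays. Without day 6 replicate 1 or without day 6 replicate 2 there were 11 and 11 members at day 4 and 13 and 13 at day 8, beside 3142 and 3137 genes overall at day 4 and 4350 and 4360 at day 8. Without day 8 replicate 2 there were 5 members and 1545 genes at day 8. Without both arrays that stood apart, which leaves 1 array each for day 4 and day 6 whose spread is taken to equal that of the other groups, 16 members were called at day 4, 16 at day 6 and 18 at day 8. In that fit the genes called overall were 4764, 6096 and 6781 of 13647, so the count grew over the whole array as well. It kept every member call made with all arrays and added calls of further members, whose changes are given with each gene below. The 2 arrays were picked from these values, and 13 of the 26 members were below all other sorted arrays on both. Leaving them out removes much of the spread of those members. A pass in that fit, or in a fit without 1 of these 2 arrays, is therefore a description and no support for a change, here and below. In a fit without an array of day 4 or day 6, the change of that day rests on 1 array.

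**Figure D1:**
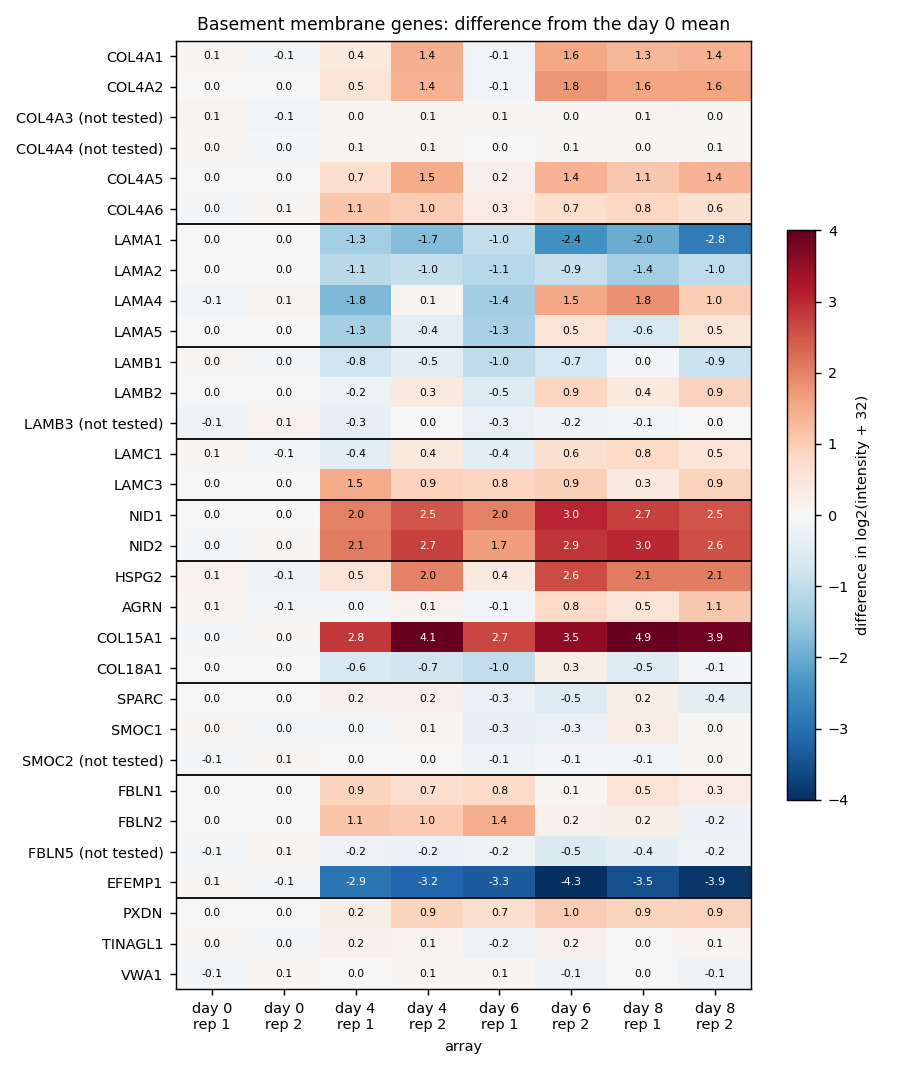
Level of each of 31 basement membrane genes (rows, grouped by chain type) on each of 8 arrays (columns) as the difference in log2(intensity + 32) from the mean of the day 0 arrays. COL15A1, NID1 and NID2 are above day 0 and EFEMP1, LAMA1 and LAMA2 below it on all 6 sorted arrays, and several rows, such as LAMA4 and HSPG2, differ within day 4 and day 6.

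Of the 6 type IV collagen genes 4 were bright enough to test, and 1 of them, COL4A6, rose at day 4 and at day 8. COL4A1 and COL4A2 encode the chains that trimerise together in nearly every basement membrane, and COL4A5 and COL4A6 encode chains of a second trimer. The genes of each pair lie head to head and share the stretch between their starts. In the RefSeq promoter table (build GRCh38.p14) the COL4A1 and COL4A2 starts are separated by only 126 bases at chr13:110307158-110307283. The whole stretch is printed on the plus strand, which reads toward COL4A2, because both genes are read out from it in opposite directions. The COL4A5 and COL4A6 starts are 379 bases apart on chromosome X, and the 250 bases before the COL4A5 start (chrX:108439588-108439837, plus strand) are shown beside it. Capitals mark matches to GGGCGG or CCAAT on either strand.
COL4A1-COL4A2: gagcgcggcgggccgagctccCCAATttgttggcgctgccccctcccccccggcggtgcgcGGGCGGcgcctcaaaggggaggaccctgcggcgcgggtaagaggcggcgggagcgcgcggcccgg
COL4A5: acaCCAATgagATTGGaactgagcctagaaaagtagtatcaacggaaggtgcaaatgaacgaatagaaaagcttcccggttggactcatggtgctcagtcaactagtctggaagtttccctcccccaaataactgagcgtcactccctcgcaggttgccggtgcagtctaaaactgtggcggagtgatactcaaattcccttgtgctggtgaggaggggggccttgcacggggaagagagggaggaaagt

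The COL4A1 and COL4A2 stretch holds 1 GGGCGG and 1 CCAAT, and the COL4A5 stretch holds 0 and 2. Among 27305 promoters in the table, GGGCGG occurs in 34.63% and CCAAT in 21.86% of windows of 126 bases before the start, and in 42.31% and 33.04% of windows of 250 bases. Neither TATAAA nor TGACTCA is in these stretches, and a match of letters is not a measured binding site.

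COL4A1 had 5790 and 5194 units at day 0, with 7152 and 14900 at day 4, then 5130 and 16150 at day 6 and finally 13930 and 14580 at day 8, in replicate order. COL4A2, from the other side of the same stretch, had day 0 values of 3784 and 3853 units, day 4 values of 5513 and 9973, day 6 values of 3507 and 12920 and day 8 values of 11500 and 11410. Both genes were about as low on replicate 1 of day 6 as at day 0, and high on its partner and on both day 8 arrays. COL4A1 was 2.59-fold and COL4A2 2.98-fold higher at day 8 than at day 0 with no overlap of arrays, but neither passed the test (log2 change 1.37 ± 0.54 and 1.58 ± 0.57 SE, limma adjusted p = 0.112 and 0.0870). The shared SE includes the spread within day 4 and day 6. Both genes were below the other sorted arrays on the 2 arrays that stood apart. Without these arrays the same day 8 changes had SEs of 0.096 and 0.085. In that fit the day 4 changes were 1.44 and 1.38 and the day 6 changes 1.55 and 1.75, each from 1 array a day. The fit on the day 8 and day 0 arrays alone called both genes (limma adjusted p = 0.000399 and 0.000180). That fit called 6784 genes overall at day 8, against 3345 with all arrays, and takes its spread from these arrays alone. A pass at day 8 in that fit is therefore given as a description, here and below. Leaving out either day 6 array alone kept the day 8 changes of both genes and gave them SEs between 0.270 and 0.327. The day 6 changes without day 6 replicate 1 alone rest on the same 1 array as those above.

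COL4A5 had 1612 and 1669 units on the day 0 arrays, 2655 and 4692 on those of day 4, 1882 and 4383 on those of day 6, and 3496 and 4367 on those of day 8. Every sorted array was above both day 0 arrays, by a log2 change of 1.09 ± 0.43 at day 4, 0.80 ± 0.43 at day 6 and 1.24 ± 0.43 at day 8 (SE), and none passed (limma adjusted p = 0.134, 0.236 and 0.0779). It passed at all 3 days without the 2 arrays that stood apart (adjusted p = 0.00242, 0.00260 and 0.00158) and, at day 4 and day 8, without either day 6 array alone (adjusted p between 0.0224 and 0.0418).

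COL4A6 followed another course. It had 813 and 874 units at day 0, with 1861 and 1743 at day 4, then 1076 and 1396 at day 6 and finally 1532 and 1315 at day 8, so that its highest arrays were those of day 4. It rose by 1.07 ± 0.20 at day 4 and by 0.73 ± 0.20 at day 8 (SE, limma adjusted p = 0.0105 and 0.0362), and at day 6 the change was 0.52 ± 0.20 (adjusted p = 0.101). The day 6 change was 0.71 and passed without the 2 arrays that stood apart (adjusted p = 0.0167) and without day 6 replicate 1 alone (0.0478). Its 2 other probe sets were dimmer and near their day 0 level, with differences of 0.13 and 0.16 at day 4, and with the mean of all 3 probe sets the gene was called at neither day (adjusted p = 0.0554 and 0.236). Neither call was made without day 0 replicate 1 (adjusted p = 0.109 and 0.226) or without day 0 replicate 2 (0.0852 and 0.172), nor was the day 8 call without either day 8 array (0.164 and 0.102). COL4A3 and COL4A4, which encode chains of the glomerular trimer, lay below the array median on all 8 arrays, at 52.2 to 67.0 and 29.2 to 36.2 units, and were not tested.

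**Figure D2:**
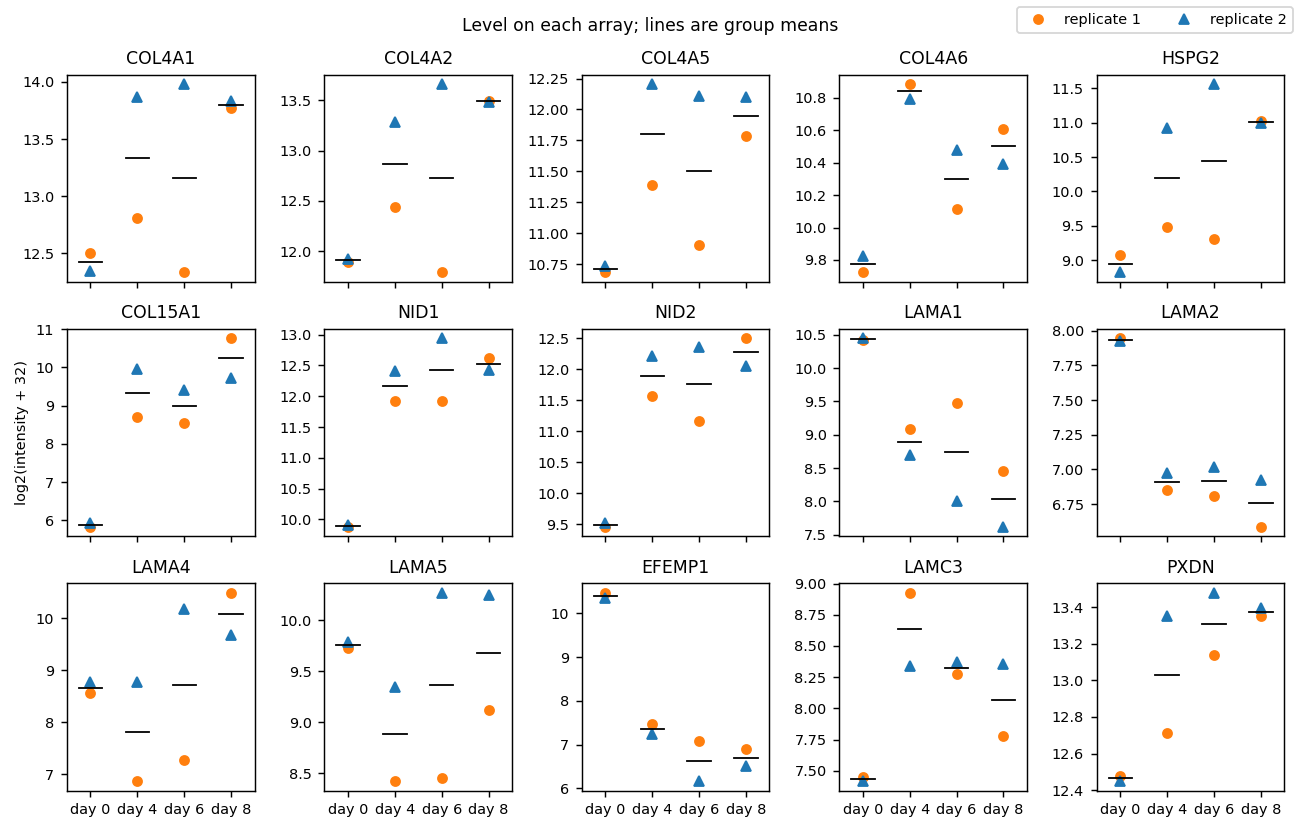
Level, as log2(intensity + 32), of 15 basement membrane genes on each array, with replicate 1 as circles, replicate 2 as triangles and the mean of each day as a line; vertical scales differ between panels and do not start at 0. The day 0 arrays lie close together in every panel, and in the panels of COL4A1, COL4A2, HSPG2, LAMA4 and LAMA5 replicate 1 of day 4 and of day 6 lies well below its partner.

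Among the laminin alpha chains, LAMA2 fell at all 3 days and LAMA1 at day 6 and day 8. No alpha chain rose. LAMA1 encodes the alpha 1 chain of the first embryonic laminin. It had day 0 values of 1332 and 1362 units, day 4 values of 510 and 385, day 6 values of 679 and 224 and day 8 values of 319 and 165. No sorted array reached the day 0 arrays, and the lowest was replicate 2 of day 8. LAMA1 fell 3.23-fold at day 6 (log2 change -1.69 ± 0.49 SE, limma adjusted p = 0.0483) and 5.25-fold at day 8 (-2.39 ± 0.49, adjusted p = 0.0141), and was 2.90-fold lower at day 4 without passing (adjusted p = 0.0780). At day 6 it was called under 7 of the 19 alternatives. That call was not made with an offset of 1 (limma adjusted p = 0.0545), no filter (0.0580), median centring (0.0538) or eBayes without trend (0.0514). Nor was it made with only the arrays of day 6 and day 0 (0.100). The day 6 call lay close to the threshold: it was lost on leaving out any 1 of the 8 arrays other than day 6 replicate 1 (adjusted p between 0.0638 and 0.199). The day 8 call was not made without either day 0 array (0.0845 and 0.0876) or without day 8 replicate 2 (0.0997). The day 4 change passed without either day 6 array (0.0154 and 0.0156), without the 2 arrays that stood apart (0.0145) and with only the arrays of day 4 and day 0 (0.0105).

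LAMA2, the alpha chain of the muscle basement membrane, was dim throughout, with 214 and 212 units on the day 0 arrays, 83.2 and 93.7 on those of day 4, 80.1 and 97.6 on those of day 6, and 64.0 and 89.6 on those of day 8. The 6 sorted arrays lay close together and below both day 0 arrays. The fall was 2.03-fold at day 4, 2.03-fold at day 6 and 2.27-fold at day 8 (log2 changes -1.03 ± 0.15, -1.02 ± 0.15 and -1.18 ± 0.15 SE, limma adjusted p = 0.00368, 0.00331 and 0.00178). It was called under each of the 18 alternatives in which the gene was tested, and 2 further probe sets above the filter were lower by 0.51 and 1.05 at day 4.

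LAMA4 and LAMA5, the alpha chains of vessel basement membranes, passed at no day. LAMA4 had 346 and 404 units at day 0, with 84.1 and 404 at day 4, then 122 and 1120 at day 6 and finally 1406 and 788 at day 8. Replicate 1 of day 4 and of day 6 were under both day 0 arrays, while replicate 2 of day 6 and both day 8 arrays were above them, and the change was -0.85 ± 0.98 at day 4, 0.05 ± 0.98 at day 6 and 1.42 ± 0.98 at day 8 (SE, limma adjusted p = 0.611, 0.975 and 0.330). Over the alternatives the day 4 change ran from -1.81 to 0.10, the day 6 change from -1.40 to 1.50 and the day 8 change from 0.376 to 1.825. Without the 2 arrays that stood apart the change was 1.50 at day 6, then from 1 array, and 1.42 at day 8. With only the arrays of day 8 and day 0 LAMA4 passed at day 8 (limma adjusted p = 0.00996), in the fit that called 6784 genes overall. Its other probe sets were below the expression filter and differed by 0.065 to 0.149 at day 8. LAMA5 had day 0 values of 818 and 852 units, day 4 values of 311 and 619, day 6 values of 319 and 1203 and day 8 values of 525 and 1181. Its arrays fell on both sides of day 0 at day 6 and day 8, and the change was -0.88 ± 0.65, -0.40 ± 0.65 and -0.08 ± 0.65 (adjusted p = 0.417, 0.713 and 0.950), with no call under any alternative.

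Of the beta and gamma chains, LAMC3 was the member that passed. LAMC3, a gamma chain of limited distribution, had 143 and 139 units on the day 0 arrays, 455 and 292 on those of day 4, 279 and 300 on those of day 6, and 187 and 295 on those of day 8. All 6 sorted arrays were above day 0. LAMC3 rose 2.30-fold at day 4 and 1.86-fold at day 6 (log2 change 1.20 ± 0.26 and 0.89 ± 0.26 SE, limma adjusted p = 0.0192 and 0.0464), and was 1.55-fold higher at day 8 (adjusted p = 0.118). The day 8 change passed without the 2 arrays that stood apart (adjusted p = 0.0478) and with only the arrays of day 8 and day 0 (0.0465). The day 4 call was not made without day 0 replicate 1, day 0 replicate 2 or day 4 replicate 1 (adjusted p = 0.116, 0.125 and 0.0701), and the day 6 call not without either day 0 array or either day 6 array (0.0842 to 0.211).

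LAMC1, the gamma chain of most laminins, had 5887 and 5172 units at day 0, with 4085 and 7227 at day 4, then 4063 and 8609 at day 6 and finally 9609 and 7919 at day 8. Both replicate 1 arrays of day 4 and day 6 lay below day 0 and the other 4 sorted arrays above it, and the day 8 change was 0.66 ± 0.40 (SE, limma adjusted p = 0.270), or 0.0114 as adjusted p without the 2 arrays that stood apart. In that fit LAMC1 also passed at day 6 (0.64, adjusted p = 0.0274), and a second, dimmer probe set of the gene differed by 0.25 at day 8. LAMB2, a beta chain found at nerve-muscle junctions, had day 0 values of 408 and 425 units, day 4 values of 361 and 538, day 6 values of 284 and 788 and day 8 values of 555 and 816, a day 8 change of 0.65 ± 0.45 (adjusted p = 0.330, or 0.0391 without those 2 arrays). Without them the day 6 change of LAMB2 was 0.87 and passed as well (adjusted p = 0.0336). LAMB1, the common beta chain, was lower than day 0 on every sorted array, with 2460 and 2341 units on the day 0 arrays, 1353 and 1744 on those of day 4, 1158 and 1465 on those of day 6, and 2320 and 1304 on those of day 8. Its changes were -0.63 ± 0.30, -0.87 ± 0.30 and -0.46 ± 0.30 (adjusted p = 0.205, 0.0824 and 0.307), and the day 6 change passed without either day 8 array (0.0488 and 0.0486). LAMB3, a beta chain of epithelia, was below the array median on all arrays (42.0 to 69.1 units) and not tested.

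**Figure D3:**
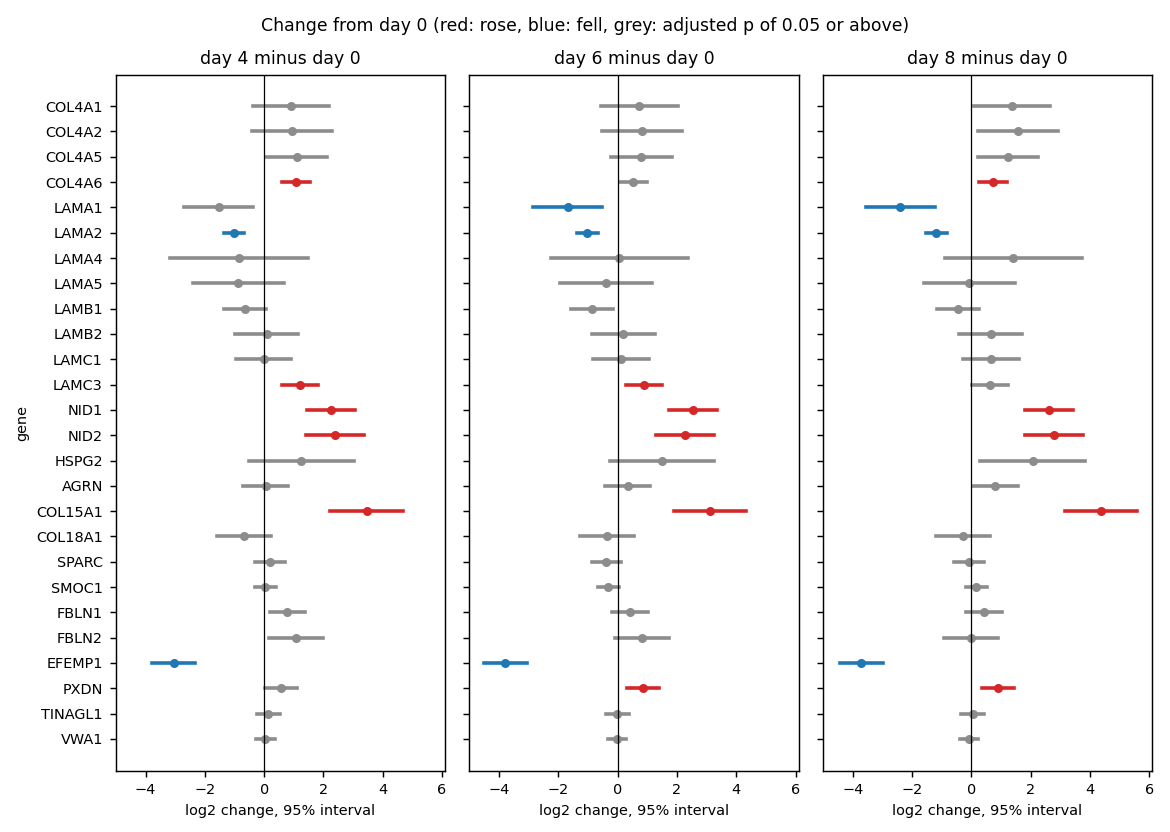
Change from day 0 of the 26 tested basement membrane genes at day 4, day 6 and day 8, as the log2 difference with its 95% interval from the fit; red points rose, blue points fell and grey points had an adjusted p of 0.05 or above. NID1, NID2 and COL15A1 lie to the right and EFEMP1 and LAMA2 to the left of 0 in all 3 panels, and the intervals of LAMA4, LAMA5 and HSPG2 are wide.

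The nidogens were the chain type in which every member rose at every day. NID1 and NID2 encode glycoproteins that bind laminin gamma chains and type IV collagen and bridge both networks. NID1 had 909 and 935 units at day 0, with 3836 and 5401 at day 4, then 3839 and 7826 at day 6 and finally 6275 and 5444 at day 8. NID2 had day 0 values of 670 and 702 units, day 4 values of 3001 and 4711, day 6 values of 2260 and 5220 and day 8 values of 5752 and 4228. For both genes the lowest sorted array was more than 3 times the highest day 0 array. NID1 rose 4.81-fold, 5.78-fold and 6.16-fold (log2 changes 2.27, 2.53 and 2.62, each ± 0.34 SE, limma adjusted p = 0.00474, 0.00264 and 0.00225), and was called under all 19 alternatives at each day. NID2 rose 5.28-fold, 4.83-fold and 6.91-fold (2.40, 2.27 and 2.79, each ± 0.41 SE, adjusted p = 0.00821, 0.00896 and 0.00388). Its calls at day 4 and day 6 were not made without day 0 replicate 1 (adjusted p = 0.0636 and 0.0671) or day 0 replicate 2 (0.0589 and 0.0612). The second bright NID1 probe set was higher by 1.42, 1.82 and 2.00 and a further, dimmer one by 0.09 to 0.14, while NID2 had 1 probe set.

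NID1 and NID2 lie on different chromosomes, and the 250 bases before each start are printed as read toward the gene. They are NID1 from chr1:236065091-236065340 (minus strand) and NID2 from chr14:52069060-52069309 (minus strand), build GRCh38.p14. Capitals mark GGGCGG and CCAAT matches on either strand. Any part of these stretches in the rises was not tested.
NID1: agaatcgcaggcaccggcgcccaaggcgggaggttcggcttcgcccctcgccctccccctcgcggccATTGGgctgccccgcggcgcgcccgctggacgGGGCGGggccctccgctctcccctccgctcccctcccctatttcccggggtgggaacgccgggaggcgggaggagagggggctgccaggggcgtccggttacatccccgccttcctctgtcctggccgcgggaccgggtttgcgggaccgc
NID2: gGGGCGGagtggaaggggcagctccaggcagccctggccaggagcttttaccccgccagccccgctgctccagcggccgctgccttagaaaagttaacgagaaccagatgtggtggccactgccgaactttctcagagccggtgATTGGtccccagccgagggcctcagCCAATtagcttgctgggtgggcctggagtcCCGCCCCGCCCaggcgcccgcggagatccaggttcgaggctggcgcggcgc

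NID1 holds 1 GGGCGG and 1 CCAAT, and NID2 holds 3 and 2, of which 2 GGGCGG matches on the opposite strand overlap. Of the 32 members 28 had a promoter in the table, and GGGCGG occurred in 22 (78.57%, against 42.31% of all 27305), CCAAT in 9 (32.14%, against 33.04%), TATAAA in 1 (3.57%, against 11.13%) and TGACTCA in 1 (3.57%, against 4.16%). These shares were not tested.

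Of the heparan sulfate proteoglycans and multiplexins, COL15A1 rose at all 3 days and HSPG2, AGRN and COL18A1 did not pass. COL15A1 encodes the core protein of type XV collagen, which lies at the outer face of vessel and muscle basement membranes. It had 24.8 and 28.5 units on the day 0 arrays, 386 and 960.5 on those of day 4, 342 and 653 on those of day 6, and 1698 and 819 on those of day 8. Both day 0 arrays were below the array median and all sorted arrays above it, so the size of the fold depends on the offset. COL15A1 rose 11.0-fold, 8.63-fold and 20.7-fold (log2 changes 3.46, 3.11 and 4.37, each ± 0.52 SE, limma adjusted p = 0.00458, 0.00625 and 0.00146). Its log2 change at day 8 ran from 3.09 to 5.42 over the 19 alternatives, all called, and its day 6 call was not made without day 0 replicate 1 (adjusted p = 0.0512). COL18A1, the related gene whose product is the source of endostatin, had 1271 and 1291 units at day 0, with 826 and 750 at day 4, then 635 and 1537 at day 6 and finally 892 and 1236 at day 8. The day 4 and day 8 arrays were below day 0, and the changes were -0.68 ± 0.39, -0.36 ± 0.39 and -0.28 ± 0.39 (SE, adjusted p = 0.292, 0.562 and 0.646). In the fit restricted to day 4 and day 0 COL18A1 passed (adjusted p = 0.0437), as it did at day 4 without the 2 arrays that stood apart (0.0457) and at day 6 without day 6 replicate 2 (0.0402). Its other probe set, nearly as bright, differed by -0.12, 0.11 and 0.27 at day 4, day 6 and day 8, opposite in sign at the later days.

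HSPG2 encodes perlecan, the large heparan sulfate proteoglycan that binds laminin, nidogen and growth factors. It had day 0 values of 509 and 420 units, day 4 values of 681 and 1904, day 6 values of 602 and 3000 and day 8 values of 2045 and 2022. All sorted arrays were above day 0, the replicate 1 arrays of day 4 and day 6 by little. The difference at day 8 was 4.18-fold (log2 change 2.06 ± 0.74 SE, limma adjusted p = 0.0869), and at day 4 and day 6 it was 2.38-fold and 2.80-fold (adjusted p = 0.312 and 0.206). On both arrays that stood apart HSPG2 was below the other sorted arrays. Without these 2 arrays the changes were 1.97, 2.62 and 2.06, with 1 array each behind those of day 4 and day 6. Without day 6 replicate 1 alone the day 6 change is the same value, since it rests on the same 1 array. With only the arrays of day 8 and day 0 HSPG2 passed at day 8 (limma adjusted p = 0.000264), in the fit that called 6784 genes overall. A second, dimmer HSPG2 probe set was higher by 0.59, 0.59 and 0.74, and with the mean of both the day 8 change was 1.40. AGRN encodes agrin, which organises receptors at nerve-muscle junctions. It had 379 and 331 units on the day 0 arrays, 345 and 391 on those of day 4, 330 and 626 on those of day 6, and 523 and 782 on those of day 8. The arrays of day 8 were above day 0 (0.80 ± 0.32 SE, adjusted p = 0.114), a difference that passed without either day 6 array (0.0395 and 0.0388) and without the 2 arrays that stood apart (0.0250). Of its 3 other probe sets, 1 was higher by 0.75 at day 8 and 2 dimmer ones differed by -0.11 and 0.08.

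In the fibulin family EFEMP1 fell, while FBLN1 and FBLN2 did not pass. EFEMP1, also called fibulin 3, had 1389 and 1273 units at day 0, with 146 and 118 at day 4, then 103 and 39.4 at day 6 and finally 86.7 and 59.1 at day 8. It was low on all 6 sorted arrays and fell 8.33-fold, 13.9-fold and 13.1-fold (log2 changes -3.06, -3.79 and -3.71, each ± 0.30 SE, limma adjusted p = 0.000736, 0.000270 and 0.000299). The call was made under all 19 alternatives at each day, and a second, dimmer probe set was lower by 1.96, 1.89 and 1.94. FBLN1, a ligand of laminin and nidogen, had day 0 values of 824 and 801 units, day 4 values of 1543 and 1310, day 6 values of 1393 and 863 and day 8 values of 1189 and 1026. FBLN2, a ligand of nidogen, had 257 and 259 units on the day 0 arrays, 596 and 566 on those of day 4, 757 and 300 on those of day 6, and 307 and 214 on those of day 8. Both were highest at day 4 or on replicate 1 of day 6. At day 4 the changes were 0.78 ± 0.25 and 1.08 ± 0.39 (adjusted p = 0.0793 and 0.106), and both passed in the fit on day 4 and day 0 alone (0.0388 and 0.00950) and without either day 6 array (0.0231 and 0.0232 for FBLN1, 0.0102 and 0.0107 for FBLN2). Without the 2 arrays that stood apart both passed at day 4 (0.0221 and 0.0165), and FBLN1 passed at day 8 (0.43, adjusted p = 0.0344). The 3 further FBLN1 probe sets above the filter differed by 0.74, 0.67 and -0.03 at day 4. FBLN2 also passed at day 6 without day 6 replicate 2 (1.44, adjusted p = 0.00976). At day 8 FBLN2 differed from day 0 by -0.01 ± 0.39 (adjusted p = 0.992), with a 95% interval from -0.93 to 0.91. FBLN5, a fibulin of elastic fibres, was below the array median on all arrays (29.3 to 61.7 units) and not tested.

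SPARC, a collagen-binding protein of matrix assembly, gave different answers on different probe sets. The brightest had 7819 and 7871 units at day 0, with 8934 and 9054 at day 4, then 6556 and 5522 at day 6 and finally 9143 and 6058 at day 8, with changes of 0.20 ± 0.21, -0.38 ± 0.21 and -0.08 ± 0.21 (SE, limma adjusted p = 0.583, 0.247 and 0.832). A second probe set was lower by 1.36, 1.57 and 1.28. With the mean of both probe sets SPARC passed at day 6 (-0.98, adjusted p = 0.0282). SMOC1, another member of the family, had day 0 values of 248 and 235 units, day 4 values of 233 and 262, day 6 values of 188 and 188 and day 8 values of 304 and 250, and none of its changes passed (adjusted p = 0.918, 0.186 and 0.448). SMOC2 was below the array median on all arrays (33.8 to 43.6 units) and not tested.

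PXDN, the peroxidase that forms the sulfilimine crosslinks of type IV collagen, rose at day 6 and day 8. It had 5677 and 5556 units on the day 0 arrays, 6668 and 10430 on those of day 4, 8995 and 11380 on those of day 6, and 10440 and 10730 on those of day 8. Every sorted array was above day 0. The rise was 1.80-fold at day 6 and 1.88-fold at day 8 (log2 change 0.85 ± 0.23 and 0.91 ± 0.23 SE, limma adjusted p = 0.0385 and 0.0288), with 0.57 ± 0.23 at day 4 (0.142). Without day 4 replicate 1 the day 4 change was 0.89 and passed (0.0280), as it did without both arrays that stood apart (0.00277). The day 6 call was not made without either day 0 array, day 6 replicate 2 or either day 8 array (0.0722 to 0.187), and the day 8 call not without either day 0 or either day 8 array (0.107 to 0.155). A second probe set was higher by 0.90, 1.11 and 1.31. TINAGL1, a matricellular protein related to a tubule nephritis antigen, stayed between 164 and 224 units over the 8 arrays. It was read on a cross-hybridising (_x_at) probe set, as no other existed. VWA1, which binds perlecan, stayed between 112 and 137 units. Neither passed at any day or under any alternative, and the 95% intervals of their day 8 changes ran from -0.34 to 0.44 and from -0.38 to 0.24.

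**Figure D4:**
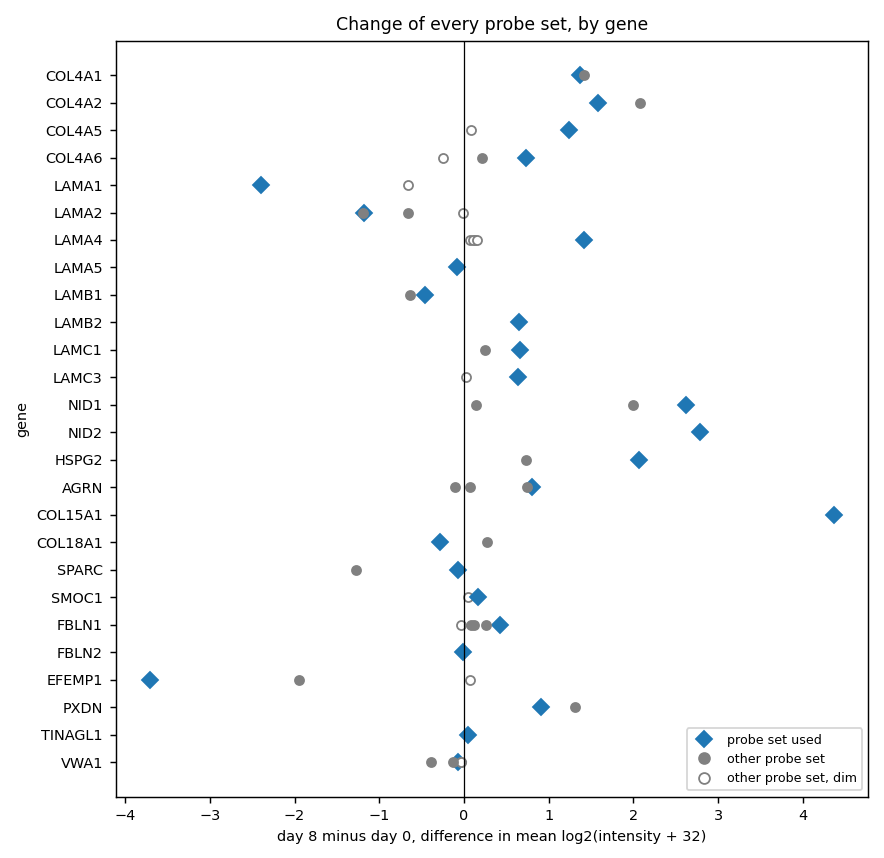
Day 8 minus day 0 difference in mean log2(intensity + 32) of every probe set of the 26 tested genes, with the probe set used as a diamond, others as filled circles and others below the expression filter as open circles. The probe sets of COL4A1, COL4A2 and PXDN lie together, while those of SPARC, NID1, EFEMP1 and COL4A6 are spread.

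Within the KDR and CD31 positive gate no basement membrane gene passed, and neither did any other gene. The share of the 13647 genes called was 0.0% for day 6 against day 4, 0.0% for day 8 against day 6 and 0.0% for day 8 against day 4 in limma, with 722, 338 and 887 genes at an unadjusted p under 0.05. Among members, COL4A6, SPARC and EFEMP1 were lower at day 6 than at day 4 at that level (log2 differences -0.54, -0.58 and -0.73, adjusted p = 0.914 each). COL15A1 (1.26) and SMOC1 (0.48) were higher at day 8 than at day 6 (adjusted p = 0.955 each), and FBLN2 was lower at day 8 than at day 4 (-1.09 ± 0.39 SE, adjusted p = 0.724). The median difference of the 26 members was -0.15, 0.31 and 0.26 in the 3 comparisons, and that of all genes tested was -0.04, -0.02 and -0.06. No member was called in these 3 comparisons under any of the 19 alternatives.

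The spread within day 4 and day 6 ran in 1 direction for much of the list. Replicate 1 of day 4 and replicate 1 of day 6 were both below all 4 other sorted arrays for 13 of the 26 members (50.0%), against 1924 of 13647 genes (14.1%), and both above them for 3 members (11.54%), against 3996 genes (29.28%). The 13 were COL4A1, COL4A2, COL4A5, LAMA4, LAMA5, LAMB2, LAMC1, NID1, NID2, HSPG2, AGRN, COL15A1 and PXDN. The 3 were LAMA1, FBLN1 and FBLN2. LAMA4 lay furthest apart, with 84.1 and 122 units there against 404 to 1406 on the other 4, a mean difference of -2.71 on the log2 scale. HSPG2 had 681 and 602 units against 1904 to 3000 (-1.73), and LAMA1 had 510 and 679 against 165 to 385 (1.08). The median difference was -0.50 for the members and 0.09 for all genes tested. This is a description without a test, since the 2 arrays were picked from the values.

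Several other measures differed on the same 2 arrays. ACTB serves as a control of RNA integrity, and its 3' over 5' probe set ratio reached 19.0 and 31.0 on them. It lay between 9.18 and 16.0 on the other sorted arrays, and 8.92 and 10.4 at day 0. The summed intensity of the 5 endothelial markers was 38120 and 34460 on these 2 arrays. On the other sorted arrays it was between 42010 and 47500, and at day 0 it was 1137 and 1150. The summed intensity of 8 yolk sac endoderm markers was 3094 and 803 on them, between 6751 and 21750 on the other sorted arrays, and 1152 and 1179 at day 0. That of 12 stroma and smooth muscle markers was 34650 and 28260 on them, between 20460 and 24010 on the other sorted arrays, and 43000 and 42810 at day 0. Between 9 and 12 of these 12 markers were above the median on each sorted array, and 5 or 6 of the 8 endoderm markers, and none was at 0. The part of these markers and of RNA integrity in the members' values was not tested. GAPDH, the second integrity control, had ratios that did not overlap between days (1.71 and 1.91 on the day 0 arrays, 2.22 and 2.15 on those of day 4, 3.73 and 3.41 on those of day 6, 2.41 and 3.08 on those of day 8), so day and this ratio cannot be told apart. The summed intensity of 3 red cell genes was between 273 and 341 on the day 4 arrays and replicate 1 of day 6, between 4602 and 10130 on the remaining sorted arrays, and 210 and 170 at day 0. That of 5 epithelial genes was between 3117 and 7075 on the sorted arrays and 29780 and 27960 at day 0.

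**Figure D5:**
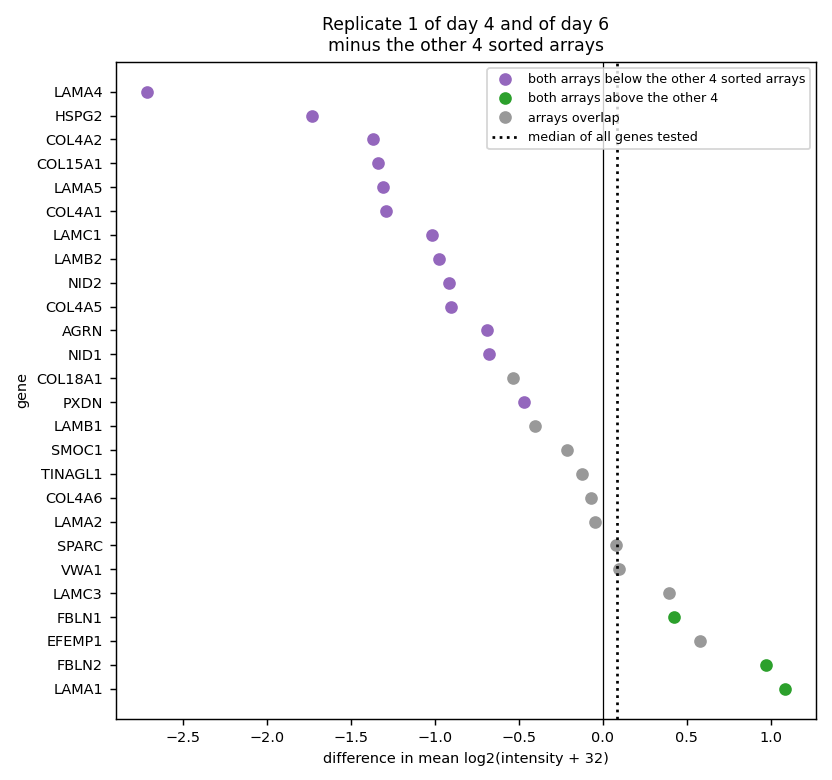
Mean log2(intensity + 32) of replicate 1 of day 4 and replicate 1 of day 6 minus the mean of the other 4 sorted arrays, for the 26 tested basement membrane genes. Purple marks the 13 genes for which both arrays lie below all of the other 4, green the 3 genes for which both lie above them, grey the rest, and the dotted line the median of all genes tested at 0.09.

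Genes that surround these components moved in both directions. Among 29 tested other proteins of basement membranes or the adjoining matrix, 5 rose and 8 fell at day 4, 5 rose and 9 fell at day 6, and 7 rose and 8 fell at day 8, with a median change of -0.12, -0.43 and -0.18. The shares were 17.2%, 17.2% and 24.1% rising, against 8.52%, 9.73% and 10.4% of all genes tested, and 27.6%, 31.0% and 27.6% falling, against 9.91%, 13.6% and 14.1%. MMRN2, an endothelial matrix protein, rose 84.8-fold, 93.0-fold and 86.7-fold, and the related MMRN1 15.0-fold, 14.5-fold and 25.9-fold, while the heparan sulfate carrier GPC4 fell 10.6-fold, 10.4-fold and 14.3-fold. MMRN2 and MMRN1 were dim at day 0 (20.7 and 22.6 units, and 18.0 and 17.1 units), so their folds depend on the offset. The log2 change of MMRN2 at day 4 was 6.41, with 7.64 for the smallest and 4.96 for the largest offset tried and 3.81 for the mean of its probe sets, and that of MMRN1 was 3.90, with 5.26 and 2.53 for those offsets. Over the 114 called values of the genes named outside the members, 1 of these offsets moved the fold by over 1.5 times in 41. SPOCK1, a testican, fell 4.83-fold at day 4 and 4.48-fold at day 6. HMCN1 rose 2.36-fold at day 4, and FREM1 rose 1.95-fold at day 6 and 2.77-fold at day 8. FRAS1 fell 2.59-fold at day 4, COL6A3 8.24-fold at day 6 and 8.45-fold at day 8, and TGFBI 6.83-fold at day 8. Folds are given for the days on which a gene was among the largest called changes of its list. SPOCK1 also fell at day 8 (log2 change -2.27, limma adjusted p = 0.00186). FRAS1 also fell at day 6 and day 8 (-1.64 and -1.59, adjusted p = 0.0153 and 0.0168). HMCN1 also rose at day 8 and FREM1 at day 4 (1.25 and 1.17, adjusted p = 0.0374 and 0.0247). At the days with a fold, MMRN2, MMRN1, GPC4 and SPOCK1 kept their calls whichever 1 array was left out. There HMCN1, FREM1, FRAS1, COL6A3 and TGFBI did not pass without either day 0 array (adjusted p between 0.0617 and 0.238).

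Of 23 tested receptors, 3 rose and 5 fell at day 4, 3 rose and 6 fell at day 6, and 4 rose and 7 fell at day 8, or 13.0%, 13.0% and 17.4% rising and 21.7%, 26.1% and 30.4% falling, beside the same shares of all genes. The integrin alpha chains ITGA9, ITGA8 and ITGA5 rose 28.9-fold, 29.9-fold and 4.75-fold at day 8, whereas the laminin receptor chain ITGA6 fell 4.01-fold, the syndecan SDC2 8.33-fold and DMD, the dystrophin that ties the laminin receptor dystroglycan to actin, 5.35-fold. ITGA9 and ITGA8 kept their calls whichever 1 array was left out, and ITGA5, ITGA6 and SDC2 did not pass at day 8 without either day 0 array (adjusted p between 0.0573 and 0.103). Among 22 tested proteases and inhibitors of this matrix, 7 rose and 1 fell at day 4, 6 rose and 1 fell at day 6, and 7 rose and 1 fell at day 8, or 31.8%, 27.3% and 31.8% rising, against 8.52%, 9.73% and 10.4% of all genes tested, and 4.55% falling at each day. ADAMTS9, a secreted protease, rose 14.1-fold at day 8, the matrix-bound inhibitor TIMP3 7.51-fold and the gelatinase MMP9 8.49-fold, and the inhibitor TIMP2 fell 1.89-fold. RECK, a membrane-anchored inhibitor, rose 4.24-fold at day 4 and 4.51-fold at day 6, but did not pass with the mean of its probe sets (adjusted p = 0.309 and 0.232). RECK also rose at day 8 (log2 change 2.29, limma adjusted p = 0.000972), where the mean of its probe sets was not read. MMP9 and TIMP2 did not pass without either day 0 array (adjusted p between 0.111 and 0.202).

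Enzymes that fold, crosslink or sulfate the components were read next. Of 22 tested enzymes of collagen and laminin folding and crosslinking, 2 rose and 1 fell at day 4, 3 rose and 2 fell at day 6, and 4 rose and 2 fell at day 8, and of 21 genes of heparan sulfate synthesis and editing 1 rose and 1 fell at each day. The rising shares were 9.09%, 13.6% and 18.2% for the folding and crosslinking enzymes and 4.76% for the heparan sulfate genes, against 8.52%, 9.73% and 10.4% of all genes tested, and the falling shares were 4.55%, 9.09% and 9.09%, and 4.76%, against 9.91%, 13.6% and 14.1%. COLGALT1, which adds galactose to collagen hydroxylysine, rose 3.27-fold at day 8, the prolyl hydroxylase partner CRTAP 1.91-fold and the lysyl hydroxylase PLOD3 1.84-fold. LOX, the lysyl oxidase of fibrillar collagen, fell 8.26-fold and the related LOXL4 1.46-fold. With the mean of all probe sets CRTAP and LOXL4 did not pass at day 8 (limma adjusted p = 0.0740 and 0.155). HS3ST1, a sulfotransferase, rose 8.53-fold and EXT1, a polymerase of the heparan sulfate chain, fell 2.44-fold at day 8. Of these, COLGALT1 kept its day 8 call whichever 1 array was left out, and CRTAP, PLOD3, LOX, LOXL4, HS3ST1 and EXT1 lost it without either day 0 array (adjusted p between 0.0627 and 0.210).

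Markers of other cell types were read beside these lists. Of 12 stroma and smooth muscle markers, COL5A2 rose at all 3 days and 4, 5 and 4 fell, among them TAGLN (10.9-fold at day 4), COL1A1 (10.1-fold), COL1A2 (2.24-fold) and, at day 6, POSTN (8.40-fold). These calls were not made without either day 0 array (adjusted p between 0.0942 and 0.205). Of 6 tested endoderm markers AFP rose 23.5-fold and SERPINA1 also rose at day 8, and 0 passed at day 4 and day 6. Of 5 epithelial markers 4 fell at each day, among them CDH1 by 27.9-fold, 42.8-fold and 29.2-fold. The 3 tested red cell genes passed at neither day 4 nor day 6 and rose at day 8, HBE1 by 60.7-fold, and their calls, like those of AFP and SERPINA1, were not made without either day 0 array (adjusted p between 0.0762 and 0.191).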

How the data were processed

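RNA of 8 arrays was measured as 1 value per probe set. The authors deposited intensity values on a linear scale, made with MAS5 per the submitters' processing notes, and its version is not given in the sources used here. Detection calls were not used. No scaling was added, and log2(intensity + 32) was computed here from the deposited intensities. The platform annotation named 1 symbol for 41091 of 54675 probe sets, and 41037 matched a RefSeq gene table by gene ID, which changed 0 symbols. Of 76 member probe sets, 1 per gene was used, and 1 further probe set with several symbols was left out. The test took in 13647 of 19775 genes, namely those above the median of non-control probe sets on 2 or more arrays.

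Comparisons were tested in limma 3.58.1 (R 4.3.3), with 1 fit over 8 arrays with a term per day, eBayes with trend (4 residual and 2.84 prior degrees of freedom), Benjamini-Hochberg adjustment over all genes tested, two-sided, called at 0.05, for 6 comparisons. Tested on simulated data of 13647 genes, the day 8 comparison with day 0 recovered 29.9%, 77.6% and 90.9% of log2 changes of size 1, 2 and 3, and made 0 false calls. The day 4 comparison recovered 43.3%, 73.1% and 84.8% and made 6, and the day 6 comparison 49.3%, 92.5% and 90.9% and made 20. Between sorted days the false calls were 85 for day 6 against day 4, 23 for day 8 against day 6 and 14 for day 8 against day 4. Each simulation changed 67, 67 and 66 genes by log2 sizes of 1, 2 and 3. In the comparisons with 14 or more false calls, these were a larger share of the calls than 0.05.

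The members, the 11 other lists and the alternatives were chosen with earlier results of these data known. All members are named. Of other lists, the rule named up to 3 rises and 3 falls per comparison, the largest past the threshold with arrays that do not overlap, and KDR, PECAM1, CDH5, NANOG and SOX2. Alternatives were other offsets, filters, normalizations, probe set summaries and fits, a replicate block, and arrays left out. Promoter sequences were copied from a RefSeq table of build GRCh38.p14. Plots used matplotlib 3.10.9 under Python 3.11.15.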

Additional observations from a re-analysis of the deposited data

How the results depend on the processing

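With only the 2 groups compared, 11, 8 and 18 members and 2691, 2717 and 6784 genes overall were called at day 4, day 6 and day 8, against 7, 8 and 8 members and 2516, 3187 and 3345 genes in the fit over all arrays. Without replicate 1 of day 4 and of day 6 the counts were 16, 16 and 18 members and 4764, 6096 and 6781 genes. With 1 array left out at a time they ran from 4 to 11 at day 4, from 3 to 12 at day 6 and from 5 to 13 at day 8. The fit with the replicate number as a block called 10, 8 and 12 members and 3039, 3874 and 4250 genes. It added COL4A5, LAMA1 and FBLN1 at day 4 (adjusted p = 0.0368, 0.0215 and 0.0382) and COL4A1, COL4A2, COL4A5 and HSPG2 at day 8 (0.0474, 0.0354, 0.0190 and 0.0394), and lost no member call. The labels do not tie equal numbers together. Deviations of equally numbered arrays correlated across genes at 0.60, 0.41 and 0.19 between the sorted days, but at -0.025 to 0.024 between day 0 and the sorted days, so the numbers were not taken as pairs in comparisons with day 0. Over the called members and all alternatives, 385 values kept direction and side of the threshold, 47 lost the call and 0 reversed. For no comparison within the gate was a member called under the alternatives run. With 2 arrays a group, changes of 1 on the log2 scale were recovered in part in the simulation, from 29.9% for day 8 against day 0 to 52.2% for day 8 against day 6. Dim genes, such as COL15A1 at day 0, have folds set partly by the offset.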
